A study of Mus musculus with 10 samples.

Results

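The genes followed here encode mitochondrial chaperones and quality-control proteases. They are Hspd1, Hspe1, Lonp1, Clpp, Clpx, Afg3l1, Afg3l2, Spg7, Yme1l1 and Htra2, taken by symbol from a table of 15075 genes. All 10 were in the table and all 10 passed the filter on low values. RNA-seq was performed on interscapular brown adipose tissue (iBAT) of 5 Control and 5 AdCKO mice, with 1 library for each animal. All mice were C57BL/6, aged 20 weeks and kept at room temperature, and all were homozygous for a Crls1 allele with loxP sites around exon 4 (Crls1 f/f). AdCKO mice also carried Adipoq-Cre, in which the adiponectin promoter drives Cre in adipocytes of white and brown fat, while Control mice, called wild-type in the labels, had no Cre. The promoter does not target the other cell types of the tissue, and the RNA came from the whole tissue. Crls1 encodes cardiolipin synthase, which makes the signature phospholipid of the mitochondrial inner membrane. The question addressed is how these genes were expressed in brown fat whose adipocytes had lost Crls1.

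Nearly all mitochondrial proteins are made in the cytosol, imported unfolded and folded inside the organelle, so the matrix holds its own chaperonin and its own ATP-dependent proteases. The inner membrane, where cardiolipin is concentrated and where the respiratory chain of brown fat sits, carries further ATP-dependent proteases facing the matrix or the intermembrane space. When misfolded proteins build up, cells can raise the transcription of such genes, a program known as the mitochondrial unfolded protein response, which in mammals is linked to the factors ATF4, ATF5 and CHOP (gene Ddit3).

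Levels are given as normalized reads per kb, which are exon reads scaled between libraries by the authors and divided by the counted exon length, so that genes can be compared with each other. The normalized reads of a library summed to 7615403 or more in Control (at most 8171138) and to no more than 5843024 in AdCKO (at least 5419800), so the scaling itself bears on every difference between the groups. The targeted gene, Crls1, lay between 812.8 and 1290.8 normalized reads per kb in Control and between 192.6 and 249.2 in AdCKO, where its mean was 20.5% of the Control mean. Brown adipocyte markers (8 genes, Ucp1 among them) summed to between 59242 and 80748 normalized reads per kb in Control and between 18068 and 37951 in AdCKO, with AdCKO replicate 5 the highest of its group. By limma at an adjusted p under 0.01, 5 of these 8 markers fell and 1 rose, and 6 of 7 general adipocyte markers fell, with none rising at an unadjusted p under 0.05 either. Over all 11244 tested genes, 28% were called lower and 25.6% higher by this test. Macrophage markers (7 of 7 higher by the test) summed to between 421 and 1198 in Control and between 5719 and 7807 in AdCKO, and all 4 fibroblast markers were higher too, at 748 to 983 against 3044 to 4239. The 8 skeletal muscle markers, of which 1 passed the test and 8 were higher at an unadjusted p under 0.05, summed to between 87.1 and 114.7 in Control and to 5434, 20356, 133.2, 7756 and 120.04 in AdCKO replicates 1 to 5. Among the remaining lists, 1 of 5 endothelial markers and none of 3 tested lymphocyte markers passed by limma, the latter with none at an unadjusted p under 0.05. In bulk tissue, fewer cells of a type and less RNA per cell cannot be told apart. The part of these cell-type markers in the values below was not tested.

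With the deposited scaling, the transcripts of most proteases fell in AdCKO iBAT, those of the chaperonin overlapped with the Control levels, and that of Lonp1 rose. With a limma test across 11244 genes and an adjusted p under 0.01, 6 of the 10 genes were lower in AdCKO, namely Clpp, Clpx, Afg3l1, Afg3l2, Spg7 and Htra2. Lonp1 alone was higher, and Hspd1, Hspe1 and Yme1l1 were not called. Over all tested genes, 28% were called lower and 25.6% higher. The levels of 7 of the 10 genes did not overlap between the groups, 6 lower and 1 higher, against 50.9% of all tested genes, made up of 26.4% lower and 24.5% higher. For each of these 7 the exact two-sided permutation test gave p = 0.0079, the smallest that 5 mice against 5 allow, and it gave p = 0.82 for Hspd1, 0.42 for Hspe1 and 0.04 for Yme1l1. The median log2 fold change of the 10 was -0.47, beside -0.01 for all tested genes and -1.02 for 77 subunits of oxidative phosphorylation. These counts depended on the scaling. When every library was brought to the same total, which moved the median of all genes to 0.46, 3 were lower and 4 higher, beside 9.77% and 60.6% of all genes. When libraries were centred on the oxidative phosphorylation subunits, which moved that median to 0.98, none was lower (limma, also none at an unadjusted p under 0.05) and 7 were higher, beside 2.41% and 84.7% of all genes. Quantile normalization (median of all genes -0.08) gave 6 lower and 3 higher, beside 31.1% and 22.4%. The direction of Lonp1 was the same under each of these scalings, with log2 fold changes of 1.01, 1.52 and 0.87.

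**Figure D1:**
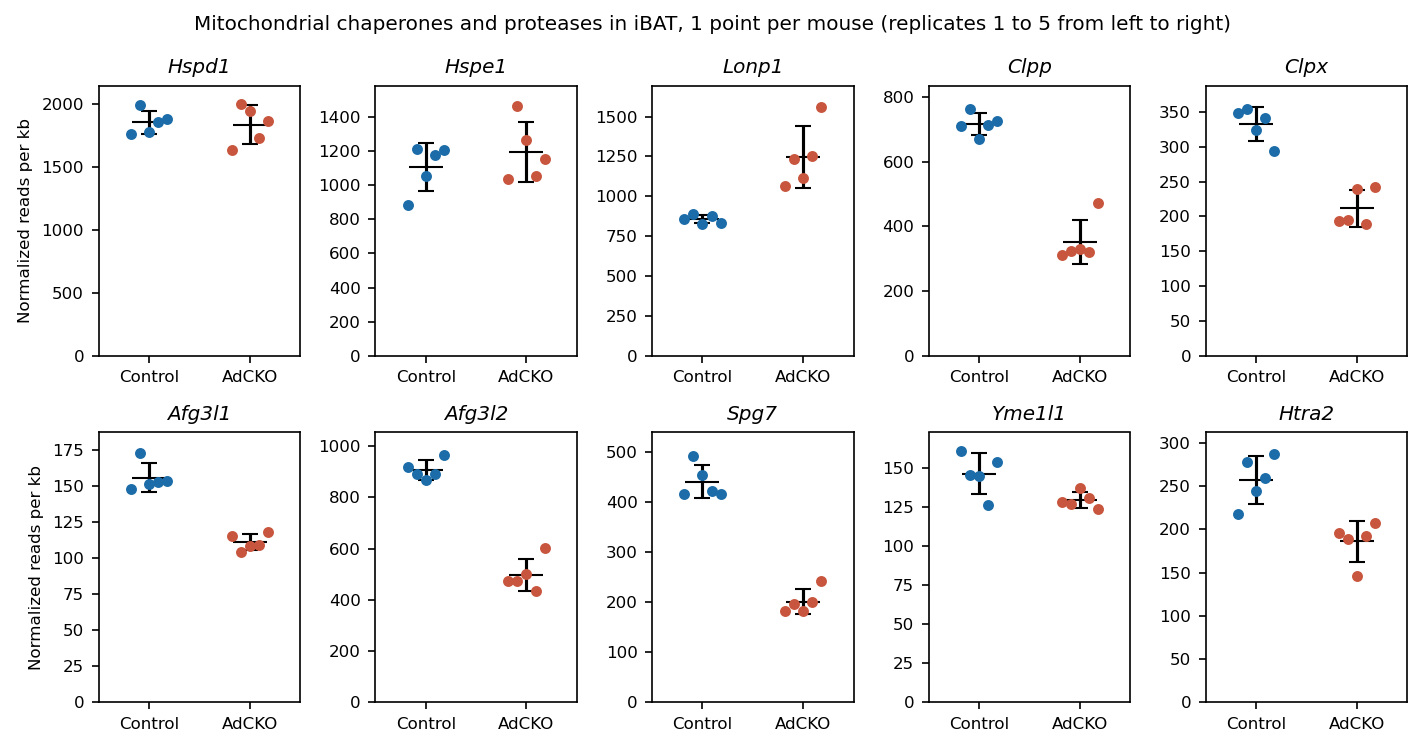
Levels of the 10 genes in normalized reads per kb (vertical axes, starting at 0) in Control and AdCKO iBAT, with 1 point per mouse, a bar at the mean and whiskers of 1 SD. With the deposited scaling Lonp1 lay higher in all AdCKO mice (1066 to 1559) than in any Control mouse (829 to 889), 6 genes lay lower without overlap, and Hspd1, Hspe1 and Yme1l1 overlapped.

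Hspd1 and Hspe1 encode HSP60 and HSP10, the barrel and the lid of the matrix chaperonin, and stand head to head. In the mm9 build Hspd1 (NM_010477) lies at chr1:55134678-55144776 on the minus strand and Hspe1 (NM_008303) at chr1:55144992-55148161 on the plus strand, with 215 bases between their starts. This gap held a match to the heat shock element, the sequence bound by HSF1, at bases 55144908 to 55144915, with 76 bases between it and the Hspe1 start and 131 to the Hspd1 start. It is shown because the match lies before the start of the deposited transcripts of both genes. In GENCODE, exons of Hspd1 and of Hspe1 overlap the 250 bases before each of these starts. The site is printed 5′ to 3′ on the plus strand of mm9 at chr1:55144897-55144926, with the match in capitals.
Hspd1-Hspe1 site: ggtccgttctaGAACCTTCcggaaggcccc

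The chaperonin pair held the highest levels of the set in Control and was not called in either direction with the deposited scaling. Hspd1 measured 1758, 1987, 1777, 1855 and 1878 normalized reads per kb in Control replicates 1 to 5 and 1630, 2000, 1945, 1729 and 1866 in AdCKO replicates 1 to 5. The groups overlapped over nearly their whole range, at 1851 ± 91.4 (SD, n = 5) against 1834 ± 153 (SD, n = 5). The log2 fold change of Hspd1 was -0.02 (limma adjusted p = 0.867, SE 0.08), with a 95% interval from -0.18 to 0.15. Hspe1 measured 886, 1210, 1051, 1175 and 1204 in Control and 1035, 1462, 1266, 1054 and 1152 in AdCKO. Control replicate 1 was the lowest and AdCKO replicate 2 the highest, and the other libraries were mixed. The log2 fold change of Hspe1 was 0.11 (limma adjusted p = 0.425, SE 0.12), with a 95% interval from -0.14 to 0.36. On the scale of fold, the intervals ran from 0.88 to 1.11 for Hspd1 and from 0.91 to 1.28 for Hspe1. Both genes were called higher under each of the other 3 scalings (the same total, quantile normalization and the centring). On the log2 scale Hspd1 was at 0.47, 0.46 and 0.97 and Hspe1 at 0.59, 0.48 and 1.10. Of all tested genes, 60.6%, 22.4% and 84.7% were called higher under these scalings. Relative to the median of all genes, Hspd1 was at 0.01, 0.54 and -0.01 and Hspe1 at 0.13, 0.56 and 0.12. The mouse annotation from RefSeq names 23 pseudogenes after Hspd1 and 7 after Hspe1, and the exons of the 2 genes share 112 bases on opposite strands in GENCODE. The deposited transcripts of the 2 genes share no base, with 215 bases between their starts. Whether the counting used strand is not given in the sources used here, and its effect on these 2 genes was not tested.

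Lonp1 and Clpp, the ATP-dependent proteases of the matrix that degrade soluble proteins, moved in opposite directions with the deposited scaling and lie on the same chromosome. LONP1 is a ring in which the unfolding and the cutting part are 1 polypeptide, and it also binds mitochondrial DNA. CLPP is only the cutting chamber, and it needs the separate unfoldase CLPX to be fed with substrates. Lonp1 (NM_028782) lies at chr17:56753722-56766326 on the minus strand and Clpp (NM_017393) at chr17:57129687-57135794 on the plus strand, 363360 bases apart, while Clpx (NM_001044389) is at chr9:65142067-65178465 on the plus strand. The 250 bases before each start, read 5′ to 3′ on the strand of the gene from mm9, are shown because these genes carry the opposed change. They come from chr17:56766327-56766576 for Lonp1, chr17:57129437-57129686 for Clpp and chr9:65141817-65142066 for Clpx, and overlap no annotated exon. Capitals mark matches to the NRF1 motif, CGCANGCG, of which Clpx held 2, while Lonp1 and Clpp held no match to any motif searched.
Lonp1: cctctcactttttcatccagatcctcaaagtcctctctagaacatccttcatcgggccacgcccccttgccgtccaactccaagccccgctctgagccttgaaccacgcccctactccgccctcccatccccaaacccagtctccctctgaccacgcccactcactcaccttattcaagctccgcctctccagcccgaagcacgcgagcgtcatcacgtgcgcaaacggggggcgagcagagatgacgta
Clpp: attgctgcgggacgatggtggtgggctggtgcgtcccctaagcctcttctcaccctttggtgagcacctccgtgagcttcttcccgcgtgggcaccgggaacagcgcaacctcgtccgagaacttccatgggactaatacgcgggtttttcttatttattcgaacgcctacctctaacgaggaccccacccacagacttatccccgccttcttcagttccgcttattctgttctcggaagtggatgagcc
Clpx: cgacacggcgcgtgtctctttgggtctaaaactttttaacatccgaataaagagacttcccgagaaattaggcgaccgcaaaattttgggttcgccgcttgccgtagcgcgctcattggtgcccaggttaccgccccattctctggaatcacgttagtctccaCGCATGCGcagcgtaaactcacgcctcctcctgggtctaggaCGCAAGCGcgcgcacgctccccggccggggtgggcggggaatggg

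Lonp1 was the member that rose. Its values were 857, 889, 829, 880 and 836 normalized reads per kb in Control replicates 1 to 5 and 1066, 1233, 1117, 1256 and 1559 in AdCKO replicates 1 to 5. Each AdCKO library was above each Control library, and AdCKO replicate 5 was the highest. The mean went from 858 ± 26.4 to 1246 ± 192 (SD, n = 5 in each group), which is 145% of Control. This is 0.53 on the log2 scale (limma adjusted p = 0.00038, SE 0.09), with a 95% interval from 0.32 to 0.73. Without AdCKO replicate 5 the log2 fold change of Lonp1 was 0.44 (limma, adjusted p = 0.00018). In the 2 AdCKO libraries with few skeletal muscle transcripts, replicates 3 and 5, set against all Control libraries, it was 0.62 (limma, adjusted p = 0.0019). These 2 libraries also had the highest brown adipocyte marker sums of their group.

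Clpp and the gene of its unfoldase, Clpx, both fell with the deposited scaling. Clpp measured 710, 763, 671, 715 and 726 normalized reads per kb in Control and 311, 325, 329, 319.7 and 472 in AdCKO. The groups did not overlap, and AdCKO replicate 5 stood well above the other 4 AdCKO libraries, which lay close together. The mean of Clpp fell from 717 ± 33.0 to 351 ± 67.7 (SD, n = 5 each), or 49.0% of Control, with a log2 fold change of -1.04 (limma adjusted p = 3.6e-06, SE 0.11). Clpx measured 349, 354, 324, 341 and 293 in Control and 194, 195, 239, 189.7 and 242 in AdCKO. AdCKO replicates 3 and 5 were the higher ones, and again no AdCKO value reached the Control range. The mean of Clpx fell from 332 ± 24.5 to 212 ± 26.5, or 63.8% of Control, with a log2 fold change of -0.65 (limma adjusted p = 4.4e-05, SE 0.09). Rescaling to the same total left Clpp called lower, at -0.56 (limma, adjusted p = 0.00015), but not Clpx, at -0.17 (limma, adjusted p = 0.097).

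The m-AAA protease, a ring in the inner membrane that faces the matrix, is built from AFG3L2 alone or from AFG3L2 with paraplegin (gene Spg7), and in mice also with AFG3L1. It removes damaged membrane proteins and matures the ribosomal protein MRPL32. Afg3l2 (NM_027130) lies at chr18:67564418-67608790 on the minus strand, Spg7 (NM_153176) at chr8:125589408-125621651 and Afg3l1 (NM_054070) at chr8:126001762-126027816, the last pair on the plus strand and 380110 bases apart. All 3 subunit genes fell with the deposited scaling and with quantile normalization. Centring on the oxidative phosphorylation subunits moved the median of all genes to 0.98 and put these 3 genes at 0.11 (Afg3l2), 0.51 (Afg3l1) and -0.14 (Spg7) on the log2 scale. Afg3l2, the most abundant of them, measured 917, 891, 869, 892 and 967 normalized reads per kb in Control and 473, 474, 501, 434 and 601 in AdCKO. No AdCKO value reached the Control range. Its mean was 54.7% of Control, with a log2 fold change of -0.88 (limma adjusted p = 2.2e-06, SE 0.08). Spg7 measured 416, 493, 454, 423 and 417 in Control and 183, 197, 182, 199.9 and 243 in AdCKO, which put every AdCKO mouse far below every Control mouse. At 45.6% of Control and a log2 fold change of -1.13 (limma adjusted p = 3.7e-07, SE 0.09), Spg7 had the most negative estimate of the 10 genes, just ahead of Clpp. Afg3l1 measured 148, 173, 151, 153 and 154 in Control and 116, 104, 109, 109 and 118 in AdCKO. Control replicate 2 stood above the other Control values, and the groups did not overlap. The mean of Afg3l1 was 71.4% of Control, with a log2 fold change of -0.48 (limma adjusted p = 3.3e-05, SE 0.06). Afg3l2 (-0.39) and Spg7 (-0.65) were still called lower with the same total in every library, while Afg3l1 was at -0.00 and was not called.

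Yme1l1 encodes the i-AAA protease, which faces the intermembrane space and cleaves the fusion protein OPA1, and Htra2 encodes a serine protease of the intermembrane space that binds inhibitors of apoptosis once released into the cytosol. Yme1l1 (NM_013771, chr2:23012025-23054780, plus strand) measured 161, 145, 144, 126 and 154 normalized reads per kb in Control and 128, 127, 137, 131 and 124 in AdCKO. The groups overlapped, with AdCKO replicate 5 just below the lowest Control value and the other AdCKO values in the lower part of the Control range. Its log2 fold change was -0.17 (limma adjusted p = 0.0502, SE 0.07), with a 95% interval from -0.33 to -0.02, so the gene was not called. It was 0.31 and called higher with the same total in every library (limma, adjusted p = 0.0026). That scaling moved the median of all genes to 0.46, and 60.6% of them were called higher. Relative to the median of all genes, Yme1l1 was at -0.15 with the same total and at -0.16 with the deposited scaling. Htra2 (NM_019752, chr6:83001262-83004565, minus strand) measured 218, 277, 244, 259 and 287 in Control and 196, 188, 146, 193 and 207 in AdCKO. The lowest Control and the highest AdCKO library were close, without overlap. The mean was 72.4% of Control and the log2 fold change -0.47 (limma adjusted p = 0.0016, SE 0.10), against 0.01 with the same total in every library. In GENCODE the exons of Htra2 share 535 bases with Loxl3 and 463 with Aup1, both on the opposite strand. Loxl3 rose from 8.91 to 16.7 (log2 fold change 0.84) and Aup1 was at 473.6 and 473.8, so the Htra2 value is uncertain as far as strand was not used in the counting.

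**Figure D2:**
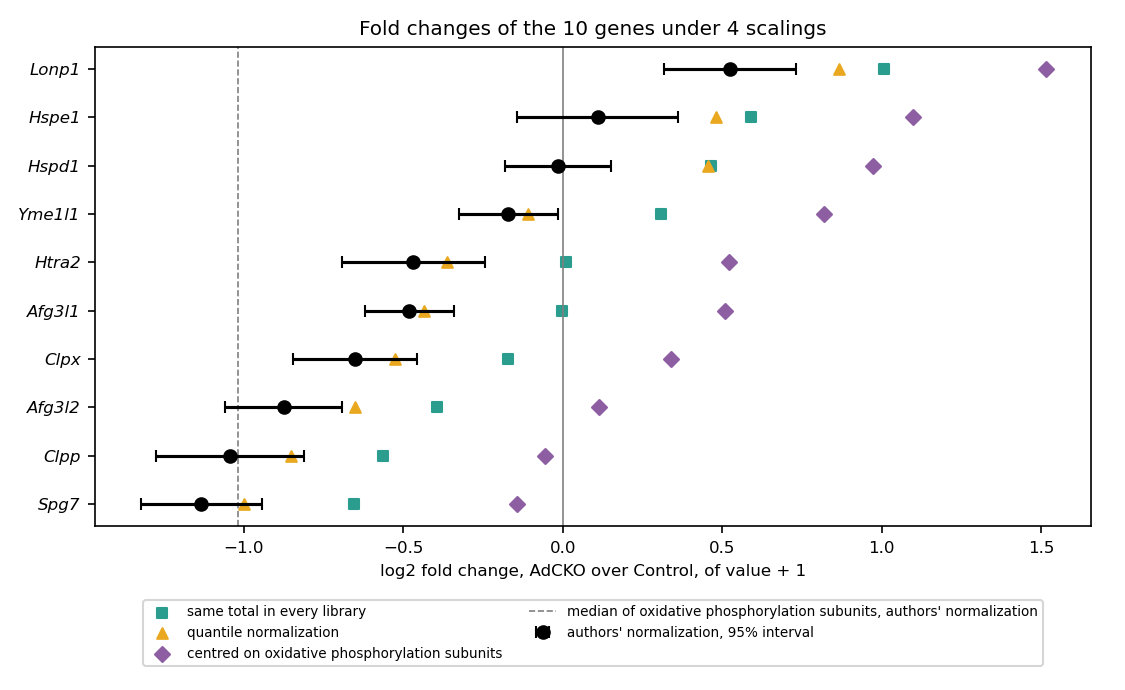
Log2 fold change of each gene, AdCKO over Control (horizontal axis, log2 of value + 1), with the deposited scaling and its 95% interval (black) and 3 other scalings (coloured). All 4 estimates of Lonp1 lie right of 0 and all 4 of Clpp and Spg7 left of it, while the others cross 0 under at least 1 scaling or, for Hspe1, lie right of it with an interval that includes 0.

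The order of the levels differed between the groups. In Control the mean levels per kb ran from Hspd1 and Hspe1 through Afg3l2, Lonp1, Clpp, Spg7, Clpx, Htra2 and Afg3l1 down to Yme1l1. The neighbours Hspe1 and Afg3l2, Afg3l2 and Lonp1, and Afg3l1 and Yme1l1 overlapped in range there. In AdCKO the order was Hspd1, Lonp1, Hspe1, Afg3l2, Clpp, Clpx, Spg7, Htra2, Yme1l1 and Afg3l1. Lonp1 and Hspe1, Afg3l2 and Clpp, Clpx and Spg7, and Spg7 and Htra2 overlapped in range. Lonp1 went from rank 4 to rank 2, being above Hspe1 in 3 of 5 AdCKO libraries and in no Control library.

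Ratios between 2 genes of the same library do not change when all values of that library are multiplied by 1 factor, as in the same-total scaling, although quantile normalization does change them, and 8 were compared with exact two-sided permutation tests of the log2 ratio, adjusted over the 8 (threshold 0.05). The ratio of Lonp1 to Clpp changed most. It was 1.21, 1.17, 1.24, 1.23 and 1.15 in Control replicates 1 to 5 and 3.43, 3.80, 3.39, 3.93 and 3.31 in AdCKO replicates 1 to 5. Both groups were tight and far apart, with means of 1.20 ± 0.038 and 3.57 ± 0.28 (SD) and a log2 difference of 1.57 (exact permutation p = 0.0079, adjusted p = 0.013). Leaving out any 1 library kept this difference between 1.54 and 1.60, and quantile normalization put it at 1.72.

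The 2 parts of the ClpXP protease also shifted against each other. Clpp to Clpx was 2.04, 2.15, 2.07, 2.10 and 2.48 in Control and 1.61, 1.67, 1.38, 1.68 and 1.95 in AdCKO. There was no overlap, although Control replicate 5 and AdCKO replicate 5 were the highest of their groups. The mean ratio fell from 2.17 ± 0.18 to 1.66 ± 0.20 (exact permutation p = 0.0079, adjusted p = 0.013). With quantile normalization the groups overlapped, and the ratio passed with a log2 difference of -0.33 (exact permutation p = 0.016, adjusted p = 0.025).

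Within the m-AAA genes, Afg3l1 gained on Afg3l2 with the deposited scaling. Afg3l2 to Afg3l1 was 6.18, 5.14, 5.75, 5.84 and 6.28 in Control and 4.09, 4.54, 4.61, 3.97 and 5.08 in AdCKO, a fall in the mean from 5.84 ± 0.45 to 4.46 ± 0.44 (exact permutation p = 0.0079, adjusted p = 0.013). The highest AdCKO ratio lay just under the lowest Control ratio. With quantile normalization the log2 difference of this ratio was -0.21 in place of -0.39, with overlapping groups, and it did not pass (exact permutation p = 0.056, adjusted p = 0.074). Afg3l2 to Spg7 rose from 2.07 ± 0.21 to 2.48 ± 0.22 with overlapping groups (exact permutation p = 0.024, adjusted p = 0.032), and this call was lost when any of 7 of the 10 libraries was left out, namely Control replicates 2, 3 and 4 and AdCKO replicates 1, 2, 3 and 5 (exact permutation, adjusted p from 0.053 to 0.063). With quantile normalization of all libraries its log2 difference was 0.35, without overlap (exact permutation p = 0.0079, adjusted p = 0.016). Of the summed level of the 3 genes, Afg3l2 held 60.3% in Control and 61.3% in AdCKO (exact permutation p = 0.48). The share of Afg3l1 went from 10.4% (10.01% to 11.1%) to 13.8% (12.3% to 15.0%) and that of Spg7 from 29.3% (27.1% to 31.7%) to 24.8% (23.0% to 26.9%), each with an exact permutation p of 0.0079.

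Of the other ratios, Yme1l1 was set against Oma1, which encodes the second OPA1-cleaving protease, and HSPA9 (mitochondrial HSP70, which hands imported proteins to the chaperonin) against HSP60. Yme1l1 to Oma1 rose from 2.60 ± 0.23 to 3.41 ± 0.54 and Hspa9 to Hspd1 from 2.10 ± 0.13 to 2.48 ± 0.22, both without overlap (exact permutation p = 0.0079 and adjusted p = 0.013 for each). In the first, AdCKO replicate 3 was the highest at 4.34, and in the second AdCKO replicate 5, at 2.81. Hspd1 to Hspe1 was 1.69 ± 0.17 and 1.55 ± 0.11 in overlapping groups (log2 difference -0.13, exact permutation p = 0.14, adjusted p = 0.14). Htra2 to Yme1l1 was 1.77 ± 0.27 and 1.44 ± 0.23, also overlapping (log2 difference -0.30, exact permutation p = 0.071, adjusted p = 0.082). Without Control replicate 1, whose ratio of 1.35 was the lowest of its group, that difference was -0.39 and passed (exact permutation, adjusted p = 0.021). In all, 6 of the 8 ratios passed, between 5 and 7 when single libraries were left out, and 5 with quantile normalization. The share of other gene pairs that would pass was not computed. Taken singly, 50.9% of all tested genes did not overlap between the groups.

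**Figure D3:**
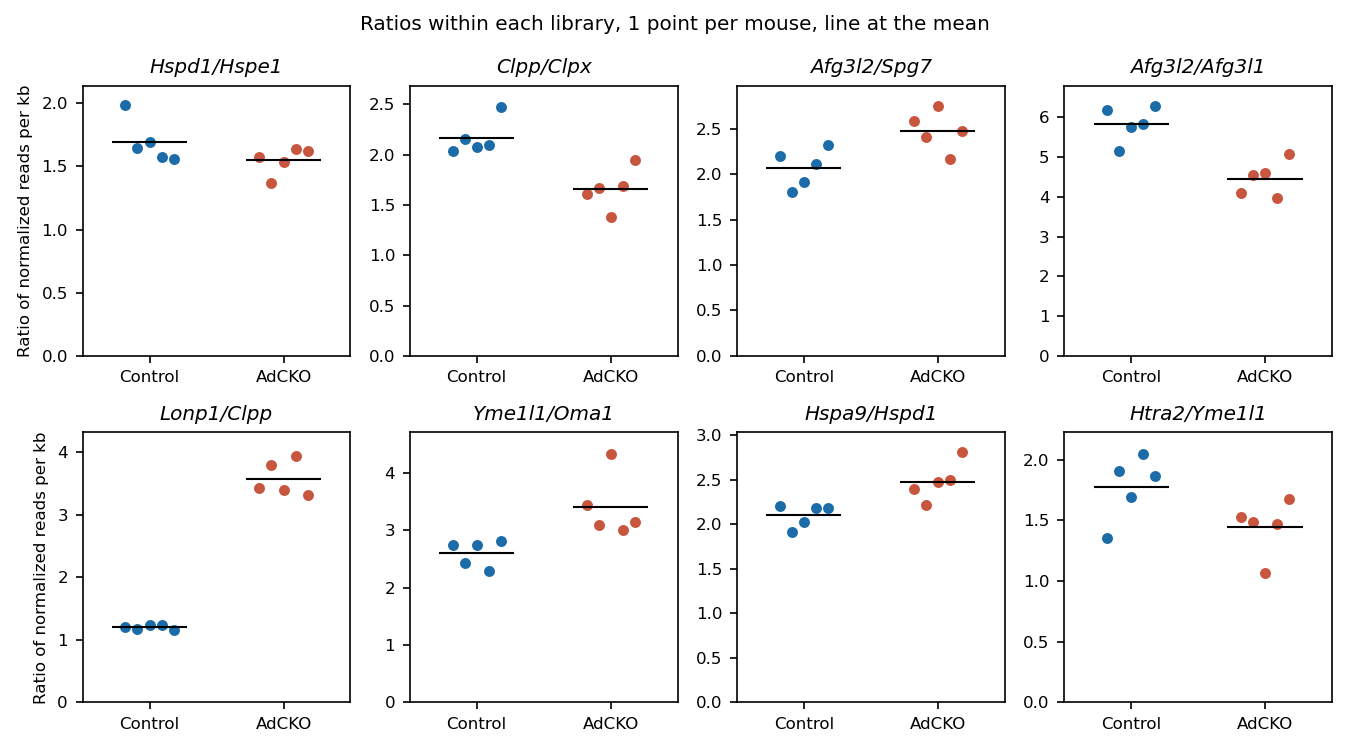
The 8 ratios of normalized reads per kb between 2 genes of the same library (vertical axes, starting at 0) in Control and AdCKO iBAT, with 1 point per mouse and a line at the mean. Lonp1/Clpp lies at 1.15 to 1.24 in Control and at 3.31 to 3.93 in AdCKO, while Hspd1/Hspe1, Afg3l2/Spg7 and Htra2/Yme1l1 overlap between the groups.

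The rest of the mitochondrial protein-quality machinery was read from lists of the same pathway. With the deposited scaling, 9 of 11 other mitochondrial chaperones and co-chaperones fell and 1 rose, beside 28% and 25.6% of all genes. Of the 11, 1 was not called, and their median log2 fold change was -0.63. Those with the smallest p were Bcs1l, an AAA chaperone for complex III assembly (-1.22), Dnajc19, a J-domain protein of the import motor (-0.97), Grpel1, the nucleotide exchange factor of mitochondrial HSP70 (-0.84), and Trap1, the mitochondrial HSP90 (-1.003). Grpel2, the paralog of Grpel1, went the other way, from 53.6 ± 5.12 to 67.7 ± 8.80 normalized reads per kb (log2 fold change 0.33, limma, adjusted p = 0.0096). That call is fragile, since Grpel2 was called higher under 8 of 23 alternatives and with 3 of the 10 libraries left out singly (limma, adjusted p up to 0.0505). Hspa9 itself was at 3879 ± 201 and 4540 ± 513, with a log2 fold change of 0.22 that missed the threshold (limma, adjusted p = 0.0503). Of these 11, 7 were lower and 1 higher with quantile normalization (31.1% and 22.4% of all genes), 5 and 2 with the same total (9.77% and 60.6%), and 6 were higher with the centring (84.7%).

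Among 18 other mitochondrial proteases and scaffolds 16 fell with the deposited scaling, beside 28% of all genes, and 2 were not called. None rose (limma, also none at an unadjusted p under 0.05), beside 25.6% of all genes, and the median was -0.56. Those with the smallest p were Immp2l, a subunit of the inner membrane peptidase (-1.89), Mipep, the intermediate peptidase (-1.18), and Pmpcb and Pmpca, the subunits of the matrix processing peptidase (-1.16 and -0.92). Immp1l, the other subunit of the inner membrane peptidase, was at -0.35. Oma1 went from 56.2 ± 3.04 to 38.5 ± 4.48 normalized reads per kb (log2 fold change -0.54, limma, adjusted p = 0.00016). In this list 13 were lower with quantile normalization (31.1% of all genes), 7 were lower and 3 higher with the same total (9.77% and 60.6%), and 1 and 10 with the centring (2.41% and 84.7%).

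The transcription factors linked to the mitochondrial stress response moved upward with the deposited scaling, with 4 of 6 higher, beside 25.6% of all genes. None was lower (limma, also none at an unadjusted p under 0.05), and the median was 1.10. Ddit3, which encodes CHOP and which the study singled out in these samples, so that it is no independent evidence, rose from 219 ± 7.97 to 1448 ± 256 normalized reads per kb (log2 fold change 2.70, limma, adjusted p = 3.1e-09). The paper describes CHOP as a factor of the endoplasmic reticulum stress response. Which stress response the rise of these factors belongs to was not tested. Jun rose by 1.55, Atf4 by 1.22 and Atf5 by 0.98 on the log2 scale. Hsf1 was at 102 ± 18.3 and 105 ± 9.20 (limma, adjusted p = 0.725), and Cebpb at 1745 ± 944 and 1095 ± 285 (limma, adjusted p = 0.161). Under the other scalings, 4 of the 6 were called higher with quantile normalization (22.4% of all genes) and 5 with the same total (60.6%). With the centring 5 were higher as well, which is 83.3% of this list beside 84.7% of all genes.

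Known substrates and partners of the proteases divided with the deposited scaling, with 9 of 15 lower and 2 higher, beside 28% and 25.6% of all genes. The other 4 were not called, and the median was -0.35. Opa1, the fusion protein cleaved by YME1L1 and OMA1, fell by 1.04 on the log2 scale. Smdt1, whose product EMRE is a substrate of the m-AAA protease, was at -0.69. Polg, the catalytic subunit of the mitochondrial DNA polymerase, was at -0.40. The genes that rose were Alas1, which encodes the first enzyme of heme synthesis, a LONP1 substrate (0.42, limma, adjusted p = 0.0087), and Birc3, one of the inhibitor of apoptosis genes (0.63, limma, adjusted p = 0.0006). The call of Alas1 held under 11 of 23 alternatives and with 2 of the 10 libraries left out singly, and that of Birc3 under 22. With quantile normalization 5 of the 15 were lower and 2 higher, close to the 31.1% and 22.4% of all genes. There were 2 lower and 6 higher with the same total (9.77% and 60.6% of all genes), and 1 and 13 with the centring (2.41% and 84.7%).

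**Figure D4:**
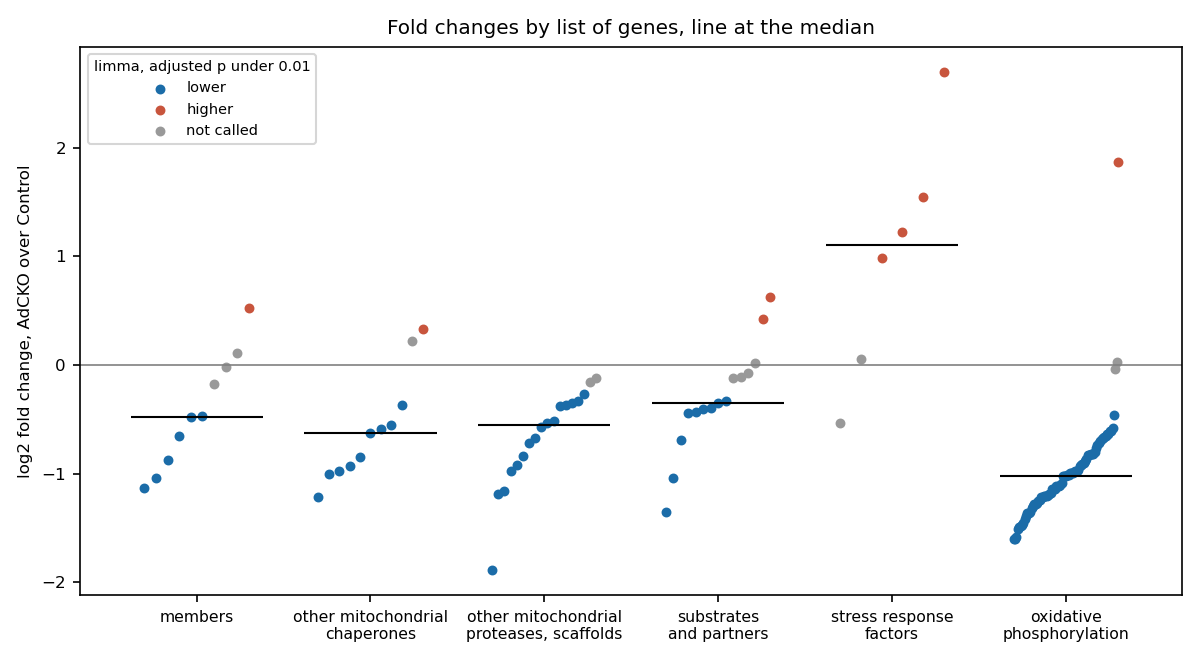
Log2 fold change, AdCKO over Control (vertical axis), of the tested genes in each list, with 1 point per gene, coloured by the limma call, and a line at the median. The medians are -0.47 for the 10 genes, -0.63, -0.56 and -0.35 for other mitochondrial chaperones, proteases and substrates, 1.10 for the stress response factors and -1.02 for oxidative phosphorylation.

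Promoter windows of 250 bases were searched on both strands for 5 motifs, as a description of letters only. The windows of Hspd1, Hspe1, Afg3l2, Spg7, Yme1l1 and Htra2 overlapped annotated exons. Those of Lonp1, Clpp, Clpx and Afg3l1 did not. The composite element bound by ATF4 and CHOP (CARE, TGATGNAA) was found in none of the 10 windows and in 2.03% of the windows of all 15075 genes. The heat shock element (GAANNTTC) was found for Hspd1 and Hspe1, at the site printed above that both windows share, and in 4.99% of all windows. The NRF1 motif (CGCANGCG), named for nuclear respiratory factor 1, was found for Afg3l1, Clpx and Spg7 and in 12.6% of all windows. The estrogen-related receptor motif (TNAAGGTCA) and the cyclic AMP response element (TGACGTCA) were found in none of the 10, and in 0.723% and 2.5% of all windows.

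The genes whose profile over the 10 libraries was nearest to each member were listed by the root mean square difference of centred log2 values. Nearest to Lonp1 were Fkbp11 (0.088), Lurap1l (0.094) and Pmm1 (0.096). Nearest to Clpp were Vwa8 (0.056), Hadha (0.066) and Pyurf (0.070), and to Clpx Aspa (0.073), Lias (0.084) and AA415398 (0.084). For Spg7 they were Pmpcb (0.051), Auh (0.063) and Mipep (0.064), of which Pmpcb and Mipep belong to the protease list above. For Afg3l2 they were Ide (0.056), Cdip1 (0.061) and Atp5o (0.068), and for Afg3l1 Sdhaf2 (0.044), Hdac3 (0.045) and Dcaf8 (0.052). For Hspd1 they were Golga7 (0.029), Kdelr1 (0.051) and Kpna1 (0.057), and for Hspe1 Pabpn1 (0.082), Mettl25 (0.089) and Dvl1 (0.092). For Yme1l1 they were Galnt1 (0.057), Necap1 (0.058) and Rnf103 (0.065), and for Htra2 Vps52 (0.090), Tnks1bp1 (0.090) and Psmd3 (0.091). The 10 points of each profile share their libraries and scaling, and genes with a like difference between the groups are near each other by construction.

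The fold changes were also read in libraries that differed in other tissue. In AdCKO, replicate 5 was the highest of 5 for Lonp1, Clpp, Clpx, Afg3l1, Afg3l2, Spg7 and Htra2, and also for the summed brown adipocyte markers. Its part in the spread was not tested. Without it the log2 fold changes were -1.16 for Clpp, -0.70 for Clpx, -0.50 for Afg3l1, -0.95 for Afg3l2, -1.20 for Spg7 and -0.51 for Htra2, and all 6 kept their call. With the 2 AdCKO libraries low in skeletal muscle markers alone they were -0.86, -0.46, -0.45, -0.72, -1.06 and -0.56, and again all 6 were called lower and Lonp1 higher. Hspd1 and Hspe1 were then at 0.04 and 0.14 and not called. In this smaller comparison 8 of 11 other chaperones, 10 of 18 other proteases and scaffolds and 4 of 15 substrates and partners were lower, beside 19.3% of all genes, and 4 of 6 stress response factors were higher, beside 18.7%.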

How the data were processed

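Reads were aligned to the mm9 build by the authors (STAR), exon reads were counted with iRNA-seq from HOMER tag directories, and DESeq2 was used for normalization. What the authors deposited is a signal, normalized reads divided by kb of counted exon for 1 RefSeq transcript of each gene, and not counts. No value was 0 and low values did not fall on steps of whole reads (in each library the genes under 5 normalized reads took at least 426 distinct values), so they appear to have been transformed in a way the sources used here do not name. The printed fold changes may be understated for that reason. The depth before normalization is unknown, no counting interval is given and precision means the spread over 5 mice. The fold changes, adjusted p-values and lists of the authors' own comparison were not used.

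A pseudocount of 1 was added before log2, so changes of low genes are understated. Genes averaging 10 or more in either group (11244) were tested in limma 3.58.1 under R 4.3.3 (intensity trend, two-sided, Benjamini-Hochberg adjustment, threshold 0.01), after a check on simulated data. Single values and ratios were compared with exact permutation tests. Sequences came from NCBIM37 (mm9), windows from the deposited transcript starts, and exon overlaps from GENCODE. Replicate numbers share no animal, and the numbers did not pair the libraries.

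The members and lists were chosen with earlier results of these data known. The genes named are all members, from each other list at most 4 called genes with the smallest p and called genes against the direction of the list, and 3 nearest genes per member. A gene that this rule names is not reported here. Hspa9 and Oma1 were named for their ratios, and Hsf1, Cebpb, Immp1l, Loxl3 and Aup1 after their values were seen. Adgre1 was listed by its older symbol, Emr1.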

Additional observations from a re-analysis of the deposited data

Results flagged for a closer look

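In 3 of the 36 groups of 5 values examined, 1 library lay far from the other 4, by Dixon's criterion that the gap to the nearest value exceeds 0.71 of the range of the group. Chance alone gives this in about 1 of 20 groups. Clpp measured 471.7 normalized reads per kb in AdCKO replicate 5 against 310.9 to 329.5 in the other AdCKO libraries. Afg3l1 measured 173.1 in Control replicate 2 against 148.3 to 153.9 in the other Control libraries. The ratio of Clpp to Clpx was 2.48 in Control replicate 5 against 2.04 to 2.15 in the other Control libraries. Without AdCKO replicate 5 the log2 fold change of Clpp was -1.16 in place of -1.04.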

How the results depend on the processing

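Among the alternatives, the scalings moved the calls of the members. With the same total in every library 3 members were lower and 4 higher, beside 9.77% and 60.6% of all genes. Quantile normalization gave 6 lower and 3 higher, beside 31.1% and 22.4%. With centring on the oxidative phosphorylation subunits 0 were lower (limma, 0 also at an unadjusted p under 0.05) and 7 higher, beside 2.41% and 84.7%. Log2 fold changes that turned from negative to positive were those of Hspd1 (0.47 with the same total, 0.46 with quantile normalization, 0.97 with centring), Yme1l1 (0.31 and 0.82 with the same total and with centring), Htra2 (0.011 and 0.52), and, with centring, Clpx (0.34), Afg3l1 (0.51) and Afg3l2 (0.11). Relative to the median of all genes, Hspd1 was at 0.01 with the same total, 0.54 with quantile normalization and -0.01 with centring. With the same total and with centring, Yme1l1 was at -0.15 and -0.16 relative to that median and Htra2 at -0.45 and -0.46. With centring, Clpx was at -0.64, Afg3l1 at -0.47 and Afg3l2 at -0.86 relative to it. Lonp1 was higher in all 23 alternatives, from 0.44 to 1.52 (limma, adjusted p from 5.5e-09 to 0.0019). The fit with a replicate block gave 6 members lower and 1 higher, beside 25.2% and 23.1% of all genes. It ended the calls of Grpel2 and Alas1 (limma, adjusted p = 0.034 and 0.011). The same member counts came from pseudocounts of 0.1 and 10, other filters, other forms of the limma fit and each library left out in turn (6 to 6 lower, 1 to 1 higher). Of all genes, 21.6% were lower and 24.7% higher with no filter, and 29.4% and 27.5% with array quality weights. Without Control replicate 5 these shares were 25.6% and 23.5%. The deviations of same-numbered libraries correlated at -0.27 to 0.10, and those of differently numbered ones at -0.30 to 0.38. No pairing by number was seen, though so few pairs cannot exclude one. The comparison with the 2 AdCKO libraries low in muscle markers was an alternative added after seeing the data. It gave 6 members lower and 1 higher, beside 19.3% and 18.7% of all genes. Quantile normalization of the ratios, also added then, passed 5 of 8 and ended the call of Afg3l2 to Afg3l1 (-0.21). The 5 mice per group and the unknown depth limit how small a difference could be seen.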

Other observations

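Homologs of these chaperones and proteases outside mitochondria moved the other way with the deposited scaling. Of 16 such genes 9 rose, 1 fell and 6 were not called by limma, with a median log2 fold change of 0.32. Over all tested genes, 25.6% were called higher and 28% lower, with a median of -0.01. Quantile normalization called 13 higher (22.4% of all genes), the same total in every library 15 (60.6%) and the centring 16 (84.7%). In the comparison with the 2 AdCKO libraries low in muscle markers, 6 were higher (18.7% of all genes). In the endoplasmic reticulum Hspa5 (BiP), an HSP70, rose from 917 ± 51.9 to 1756 ± 147 normalized reads per kb (log2 fold change 0.93, limma, adjusted p = 5.5e-07) and Hsp90b1 (GRP94), an HSP90, rose from 536 ± 50.0 to 1018 ± 56.0 (0.93, limma, adjusted p = 5.9e-07). The secreted relatives of Htra2, Htra1 and Htra3, rose by 0.87 and 1.16 on the log2 scale, while all 4 fibroblast markers were also higher, and the part of those cells was not tested. Lonp2, the peroxisomal relative of Lonp1, was the gene that fell, from 642 ± 41.4 to 443 ± 20.8 (log2 fold change -0.53, limma, adjusted p = 1.5e-05), while Lonp1 rose by 0.53.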
